A study of Mus musculus with 16 samples.

Results

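The 10 genes described here encode transcription factors that are known from effector regulatory T cells: Irf4, Batf, Prdm1, Nfil3, Maf, Bcl6, Ahr, Id2, Id3 and Bhlhe40. They were chosen by symbol, and 10 of 10 were found among the 49585 genes of the deposited count table. Regulatory T cells (Treg) are CD4-positive T cells that depend on the factor Foxp3 and restrain immune responses. Effector Treg are their activated form in tissues. IRF4 and BATF bind DNA together with JUN proteins and direct this state, Blimp-1 (from Prdm1) is induced within it, and BCL6, which opposes Blimp-1, is the factor of follicular T cells. The ID proteins lack a DNA-binding domain and hold E proteins, which are partners in the naive state of T cells, away from DNA.

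Cells were sorted from Foxp3IRES-GFP mice on the BALB/c background, in which GFP marks Foxp3 expression, and all groups share this allele. There were 4 groups of 4 libraries. Pregnant uTreg are CD4+Foxp3+CD25- Treg of the uterus on days 6 to 8 of pregnancy, from pools of 3 to 8 mice. The titles of 3 of the 4 pregnant samples give a later last day than their source labels. NP uTreg are CD4+Foxp3+CD25- Treg of the non-pregnant uterus, uDLN Treg are CD4+Foxp3+CD25+ Treg of the para-aortic lymph nodes of non-pregnant mice, and CD4conv are CD4+Foxp3- cells of the non-pregnant uterus, each from pools of 20 mice. Age was not given in the labels. Pregnant uTreg and CD4conv were sequenced in batch 1, and NP uTreg and uDLN Treg in batch 2. Comparisons between the batches cannot be told apart from the batch. Within batch 1, cell type cannot be told apart from pregnancy or pool size. Within batch 2, tissue cannot be told apart from the CD25 gate.

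Library totals ran from 1718558 to 15190212 counts. Levels are given as counts per 1000000 counts (CPM), as mean ± SD with n = 4 unless every library is listed, in the order of the replicate numbers. Foxp3 averaged 474.7 ± 317.9 CPM in pregnant uTreg, 416.5 ± 210.1 CPM in NP uTreg, 558.8 ± 182.2 CPM in uDLN Treg and 1.85 ± 1.52 CPM in CD4conv. Reads also fell in olfactory and vomeronasal receptor genes, which T cells do not use. Spread over all exonic bases, such reads would be 8.68% to 53.54% of a library, and more than 30% in pregnant uTreg 2 and 4, NP uTreg 3 and 5 and uDLN Treg 3. CD4conv libraries also held high levels of genes of other cell types, which are given beside the results for Id2. These are bulk samples, so fewer cells that express a gene and less RNA per cell cannot be told apart.

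Promoter sequence was matched from RefSeq (GRCm38.p6) for 7 of the 10 genes, in 8 windows of 250 bases before a transcription start. It is shown for 4 of them: for Irf4 and Nfil3, which had the highest correlation of levels over the 16 libraries, for Id2, which differed between Treg and CD4conv, and for Prdm1, whose window was the only one with an AP-1 site. The windows are chr13:30748983-30749232 on the plus strand for Irf4 and, on the minus strand, chr13:52981040-52981289 for Nfil3, chr12:25096093-25096342 for Id2 and chr10:44458749-44458998 for Prdm1. Those of Id2 and Prdm1 lie inside the gene spans given below, so they precede a start within the span and not its outermost one. Capitals mark matches on either strand to TGANTCA (the AP-1 site, which BATF and JUN bind), to GCGTG (the core bound by AHR) or to CANNTG (the E-box, bound by E proteins and, in some forms, by BHLHE40).
Irf4: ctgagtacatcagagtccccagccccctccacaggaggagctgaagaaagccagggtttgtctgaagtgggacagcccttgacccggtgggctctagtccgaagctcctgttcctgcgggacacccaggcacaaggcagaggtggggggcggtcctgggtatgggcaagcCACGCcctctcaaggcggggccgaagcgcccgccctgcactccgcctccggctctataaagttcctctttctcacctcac
Nfil3: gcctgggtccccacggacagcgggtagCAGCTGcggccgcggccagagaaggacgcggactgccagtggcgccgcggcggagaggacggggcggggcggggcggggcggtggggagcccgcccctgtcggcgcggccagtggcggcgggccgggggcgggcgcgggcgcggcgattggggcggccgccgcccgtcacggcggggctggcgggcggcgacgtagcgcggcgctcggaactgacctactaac
Id2: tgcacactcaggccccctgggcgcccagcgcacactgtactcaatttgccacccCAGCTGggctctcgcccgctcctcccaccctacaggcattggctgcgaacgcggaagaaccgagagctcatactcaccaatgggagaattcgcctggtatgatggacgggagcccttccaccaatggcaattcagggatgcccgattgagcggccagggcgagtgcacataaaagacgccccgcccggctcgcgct
Prdm1: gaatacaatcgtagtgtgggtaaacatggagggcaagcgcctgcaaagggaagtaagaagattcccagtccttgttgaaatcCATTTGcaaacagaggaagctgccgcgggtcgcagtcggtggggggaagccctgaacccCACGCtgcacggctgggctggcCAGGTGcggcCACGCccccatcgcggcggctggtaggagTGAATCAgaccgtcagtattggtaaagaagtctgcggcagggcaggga
The Prdm1 window held TGANTCA once, with its first base 48 bases before the start, 2 GCGTG and 2 E-boxes. The Irf4 window held 1 GCGTG and no E-box, and the Nfil3 and Id2 windows held 1 E-box each and no other match. Of 32526 promoters of the same length, TGANTCA was found in 6.73%, GCGTG in 28.4% and CANNTG in 66.2%. A tandem site of interferon regulatory factors (GAAA, any 2 bases, GAAA), which 2.98% of promoters held, and TTANNTAA, a site of the kind NFIL3 binds that 5.41% held, were in none of the 8 windows. CACGTG, which overlaps CANNTG and is the form BHLHE40 prefers, stood in 1 of the 8 windows, at Bcl6, and in 6.04% of promoters.

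Per kilobase of exon and averaged over the 16 libraries, Bhlhe40 was the highest of the 10 genes at 189.9 CPM per kb. It was followed by Nfil3 at 97.5, Id2 at 83.3, Batf at 52.6, Irf4 at 23.9 and Id3 at 22.8 CPM per kb. Maf had 12.8, Prdm1 8.82, Ahr 8.49 and Bcl6 2.83 CPM per kb. The receptor genes gave an estimate of the background that each gene would receive by its length. A gene was taken as above background where its mean share of counts was over 5 times that estimate. Of the 10 genes 7 passed this filter. Maf was just inside at 7.1 times, and Prdm1 at 4.9, Ahr at 4.7 and Bcl6 at 1.6 times were outside, so these 3 were tested only among all genes. The mean is taken over all libraries, so a gene that is high in 1 group can pass through that group. Within single libraries, Bcl6 was under 2 times the background of its library in 10 of 16, Prdm1 in 2, Irf4 in 1 and Id3 in 1.

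**Figure D1:**
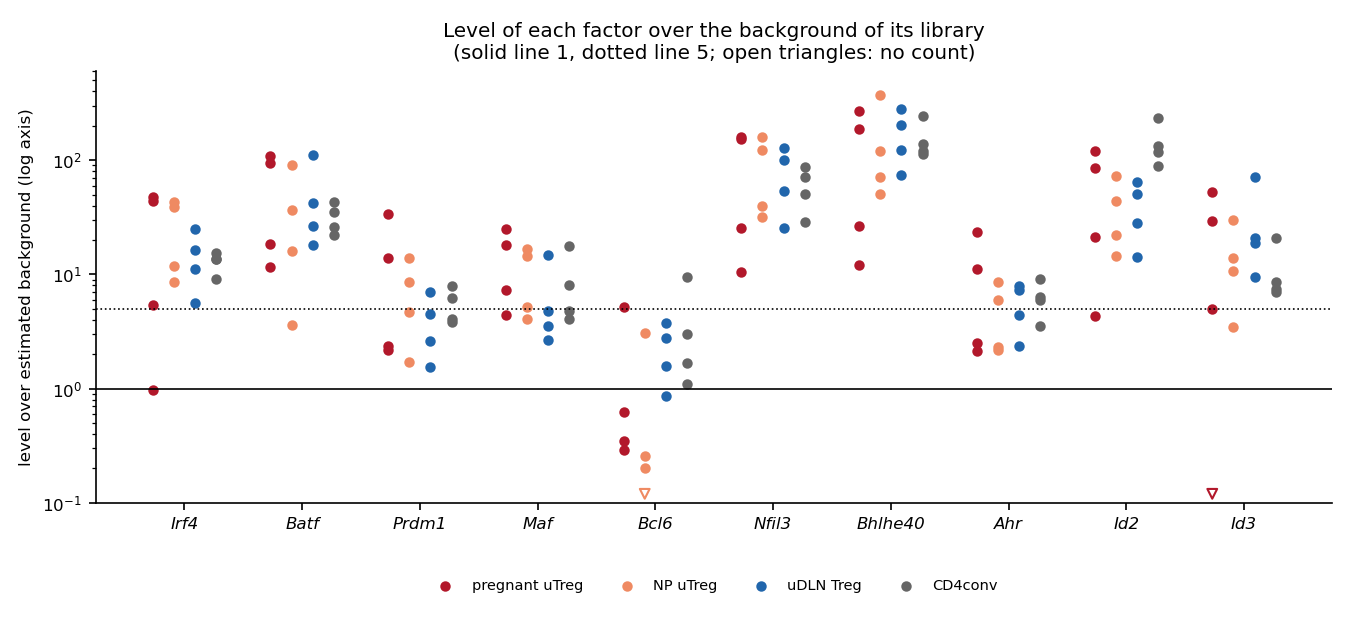
Level of each factor divided by the estimated background of its library (log axis), 1 point per library coloured by group, with a solid line at 1 and a dotted line at 5; open triangles at the bottom stand for libraries with no count. Bcl6 falls on both sides of the solid line in each Treg group, while Bhlhe40, Nfil3 and Id2 lie above the dotted line in all libraries except Id2 in pregnant uTreg 4.

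Across the 4 groups the order of means differed from gene to gene. Irf4 and Nfil3 were highest in NP uTreg, Batf, Prdm1, Maf and Ahr in pregnant uTreg, Id3 and Bhlhe40 in uDLN Treg, and Id2 and Bcl6 in CD4conv. In 9 of the 10 orders all neighbouring groups overlapped. The exception was Id2, whose 4 CD4conv libraries lay above all 12 Treg libraries. The share of all genes with such a separation was not counted, so this is a description. Irf8, which is not among the 10, separated in the same way, with 542.6 to 1311 CPM in CD4conv and at most 72.4 CPM in Treg. Pregnant uTreg 4, the library with the highest background, was the lowest of all 16 for 5 of the 10 genes, and NP uTreg 1 was the highest for 3.

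**Figure D2:**
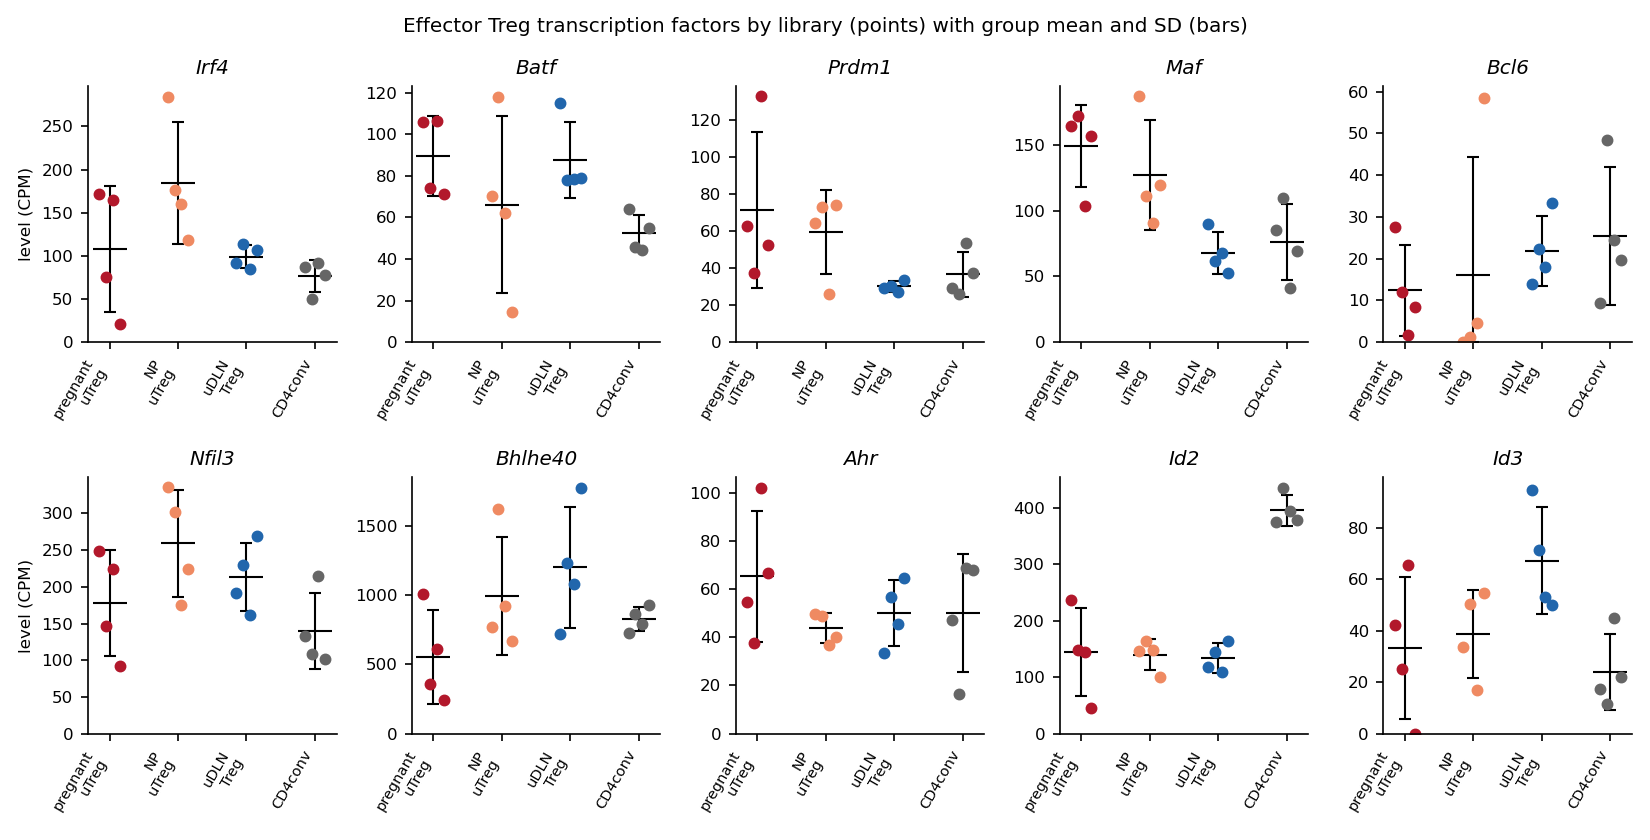
Level of each factor in CPM (y axis) in the 4 libraries of each group (points, in replicate order) with the group mean and SD (bars, drawn no lower than 0). Id2 in CD4conv, between 374.2 and 434.2 CPM, is the one group that stands clear of all the others.

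Group differences were tested with edgeR's quasi-likelihood test and Benjamini-Hochberg adjustment at 0.05, first over 30096 genes and then over the 4727 tested genes above background. Over all genes 0 of the 10 factors passed in any of the 5 comparisons. The share of genes that passed over all genes was 0.518% for NP uTreg against CD4conv, 0.432% for pregnant uTreg against CD4conv and 0% in the other 3 comparisons. At an unadjusted p under 0.05, the factors were Id2 in both comparisons with CD4conv, against 5.33% and 4.79% of all genes, and Prdm1 in pregnant uTreg against uDLN Treg, against 3.1% of all genes. None of the 10 reached it in the other comparisons, where 3.01% (NP uTreg against uDLN Treg) and 2.73% (pregnant uTreg against NP uTreg) of genes did. Among genes above background the factors called were Irf4, Nfil3 and Id2 in NP uTreg against CD4conv (3 of 7, against 6.09% of all tested), Maf and Id2 in pregnant uTreg against CD4conv (2 of 7, against 8.38%) and Maf in pregnant uTreg against uDLN Treg (1 of 7, against 2.35%). None of the 7 was called in NP uTreg against uDLN Treg, where 1.29% of genes were, or between pregnant and NP uTreg, where 0% were. At an unadjusted p under 0.05 these were Irf4 and Maf (2 of 7, against 10.9% of genes) and Irf4 and Bhlhe40 (2 of 7, against 6.37%). With DESeq2 over all genes 0 of 10 factors passed, against 0.0997% of genes for NP uTreg against uDLN Treg, 0.0399% between pregnant and NP uTreg, 0.15% for pregnant uTreg against uDLN Treg and 1.1% in each comparison with CD4conv. Among genes above background DESeq2 called 3 of 7 in NP uTreg (against 9.27% of genes) and 2 of 7 in pregnant uTreg (13.1%), each against CD4conv. It called 2 of 7 in pregnant uTreg against uDLN Treg (5.14%), 0 of 7 in NP uTreg against uDLN Treg (2.81%) and 0 of 7 between pregnant and NP uTreg (0.148%). The median log2 fold change of the 10 factors over all genes was 0.51 in pregnant uTreg and 0.33 in NP uTreg against CD4conv, where the medians of all genes were 0.07 and -0.05. It was 0.08 in pregnant uTreg and -0.13 in NP uTreg against uDLN Treg, against 0.06 and -0.06, and 0.23 for pregnant against NP uTreg, against 0.11. The comparisons share groups, so their values are not independent of each other.

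**Figure D3:**
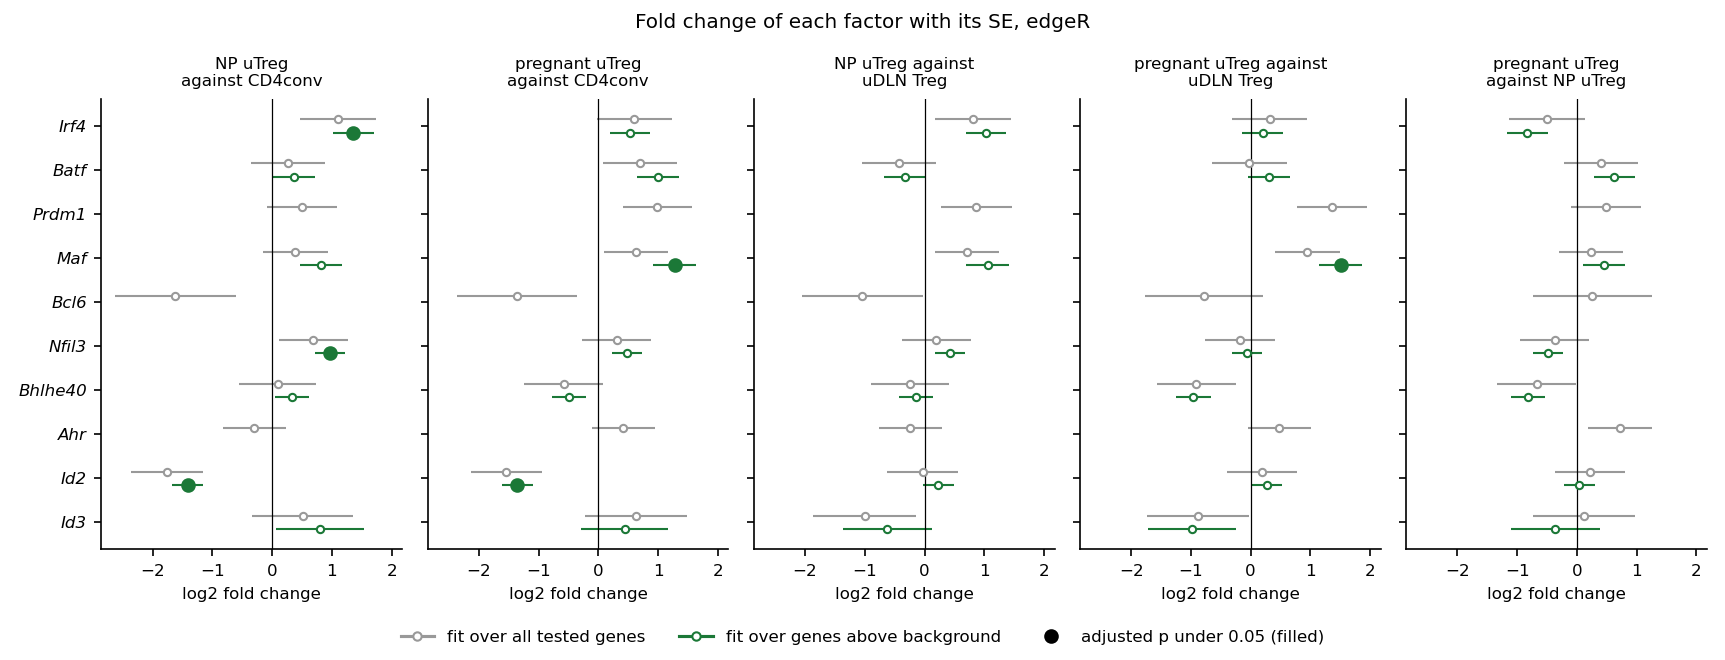
Log2 fold change of each factor with its SE in the 5 comparisons, over all genes (grey) and among genes above background (green); filled points passed an adjusted p of 0.05. No grey point is filled, and the filled green points are Irf4, Nfil3 and Id2 against CD4conv in NP uTreg, and Maf and Id2 against CD4conv and Maf against uDLN Treg in pregnant uTreg.

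IRF4 is induced by signals of the T cell receptor and is required for effector Treg. Irf4 (ENSMUSG00000021356, chr13:30749226-30766976 in GRCm38, as for all genes below, plus strand) had 171.6, 75.4, 164.3 and 20.7 CPM in pregnant uTreg, 283.8, 176.3, 160.0 and 117.8 CPM in NP uTreg, 91.1, 114.3, 84.9 and 106.2 CPM in uDLN Treg, and 86.6, 50.5, 91.3 and 78.0 CPM in CD4conv. All 4 NP uTreg libraries lay above all CD4conv and all uDLN Treg libraries, while pregnant uTreg overlapped with every other group, with replicate 4 at 0.978 times its background. Irf4 rose in NP uTreg against CD4conv among genes above background, with a log2 fold change of 1.36 ± 0.34 (SE) and an adjusted p of 0.0214 (edgeR). Leaving out single libraries kept this call in 4 of 8 fits and gave log2 fold changes of 1.15 to 1.47. The call was lost without NP uTreg 1, NP uTreg 3, CD4conv 1 or CD4conv 2, with adjusted p up to 0.0812. Over all genes the log2 fold change was 1.10 ± 0.64, adjusted p = 0.999 by edgeR. Without the 5 libraries over 30% background, Irf4 was called also over all genes. Against uDLN Treg, the comparison within batch 2, the log2 fold change of NP uTreg was 1.03 ± 0.34 with an adjusted p of 0.209 (edgeR, genes above background), and 0.0367 in a fit of these groups alone. Between pregnant and NP uTreg it was -0.83 ± 0.34 with an adjusted p of 0.716.

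BATF is a bZIP factor that pairs with JUN proteins and IRF4. Batf (ENSMUSG00000034266, chr12:85686669-85709087, plus strand) had 105.8, 74.4, 106.2 and 71.1 CPM in pregnant uTreg, 70.4, 118.1, 62.0 and 14.3 CPM in NP uTreg, 114.9, 78.1, 78.5 and 79.1 CPM in uDLN Treg, and 64.1, 46.0, 44.3 and 54.9 CPM in CD4conv. Pregnant uTreg did not overlap with CD4conv, while 2 of 4 NP uTreg libraries were above all CD4conv libraries. NP uTreg 5 was the lowest of all 16. Pregnant uTreg and CD4conv were both in batch 1 and differ also in pregnancy. The log2 fold change of pregnant uTreg against CD4conv was 1.00 ± 0.35 with an adjusted p of 0.0894 (edgeR, genes above background).

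Blimp-1, encoded by Prdm1, is a zinc finger repressor found in effector Treg that make IL-10. Prdm1 (ENSMUSG00000038151, chr10:44437177-44528501, minus strand) had 62.6, 37.4, 132.7 and 52.3 CPM in pregnant uTreg, 64.4, 72.8, 25.9 and 73.7 CPM in NP uTreg, 29.1, 30.5, 26.8 and 33.6 CPM in uDLN Treg, and 29.1, 26.2, 53.3 and 37.3 CPM in CD4conv. The 4 pregnant uTreg libraries were all above the 4 uDLN Treg libraries, and 3 of 4 NP uTreg libraries were. The difference of pregnant uTreg from uDLN Treg was 1.36 ± 0.59 on the log2 scale, with an adjusted p of 1 (edgeR, all genes). It was 0.99 ± 0.58 for pregnant uTreg against CD4conv and 0.87 ± 0.59 for NP uTreg against uDLN Treg, neither of which passed. Pregnant uTreg and uDLN Treg differ in tissue, pregnancy, the CD25 gate and batch.

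Bcl6, which encodes the repressor that opposes Blimp-1 in follicular T cells (ENSMUSG00000022508, chr16:23965052-23988852, minus strand), had 27.6, 11.9, 1.65 and 8.39 CPM in pregnant uTreg, 0, 1.25, 4.67 and 58.4 CPM in NP uTreg, 13.8, 22.4, 18.04 and 33.4 CPM in uDLN Treg, and 9.40, 48.5, 24.5 and 19.6 CPM in CD4conv. The groups overlapped, and NP uTreg 5 held the highest value of all 16 while NP uTreg 1 had no count, which allows up to 1.06 CPM (3 counts). The ratio of Prdm1 to Bcl6 per kb was 2.73, 3.77, 96.8 and 7.49 in pregnant uTreg, and 70.2, 6.66 and 1.52 in NP uTreg 2, 3 and 5, with at least 72.9 in NP uTreg 1 by the same floor. It was 2.53, 1.64, 1.78 and 1.21 in uDLN Treg and 3.71, 0.649, 2.61 and 2.29 in CD4conv. The highest ratios, in pregnant uTreg 3 and NP uTreg 1 and 2, rest on Bcl6 at 0.351, 0 and 0.2 times the background of the library. The ratios of uterine Treg overlapped with those of uDLN Treg, and no order of the groups is drawn from them. No difference in Bcl6 passed (edgeR, all genes), the log2 fold changes against CD4conv being -1.36 ± 1.00 in pregnant uTreg and -1.62 ± 1.01 in NP uTreg, and its level near the background limits what these libraries can show. Of the follicular T cell list (Cxcr5, Pdcd1, Il21, Tox2, Sh2d1a), 2 genes were above background. Of these, Sh2d1a, an adaptor of SLAM receptors, was called higher against CD4conv in pregnant uTreg (log2 fold change 2.02 ± 0.36) and in NP uTreg (1.52 ± 0.36). The other was not called. Among genes above background, 8.38% and 6.09% were called in these comparisons. Over all genes 0 of the 5 were called.

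Nfil3 encodes a bZIP repressor that is known from the circadian clock and from cytokine control in T cells. Nfil3 (ENSMUSG00000056749, chr13:52967209-52981073, minus strand) had 249.2, 146.3, 224.7 and 92.1 CPM in pregnant uTreg, 336.6, 301.5, 175.7 and 224.7 CPM in NP uTreg, 191.8, 230.1, 161.8 and 269.7 CPM in uDLN Treg, and 132.8, 108.8, 214.3 and 102.2 CPM in CD4conv. CD4conv 3 lay within the range of every Treg group, and the other 3 CD4conv libraries were below all libraries of NP uTreg and uDLN Treg. Nfil3 rose in NP uTreg against CD4conv among genes above background, by 0.97 ± 0.25 on the log2 scale (adjusted p = 0.0234, edgeR). The 8 fits without a single library gave log2 fold changes of 0.84 to 1.28, and the call was kept in 3 of them. It was lost without NP uTreg 1, NP uTreg 2, CD4conv 1, CD4conv 2 or CD4conv 5, with adjusted p up to 0.0768, and also without the 5 libraries over 30% background and in a fit of the groups compared alone. In pregnant uTreg the difference from CD4conv was 0.48 ± 0.25 with an adjusted p of 0.238, and it passed in 1 of the 8 fits, that without CD4conv 3. Of the 45 pairs among the 10 factors, Irf4 and Nfil3 had the highest correlation over the 16 libraries (log2(CPM + 1), Pearson r = 0.84, Spearman rho = 0.88). Without the 2 libraries farthest from the median of Irf4, pregnant uTreg 4 and NP uTreg 1, r was 0.77 over 14 libraries. It was 0.84 over the 11 libraries with less than 30% background. After removal of group means it was 0.81, below Irf4 with Id2 and Irf4 with Id3, each at 0.84, so the order of the pairs depends on the measure. The levels share the depth and the background of each library, so this is a description.

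**Figure D4:**
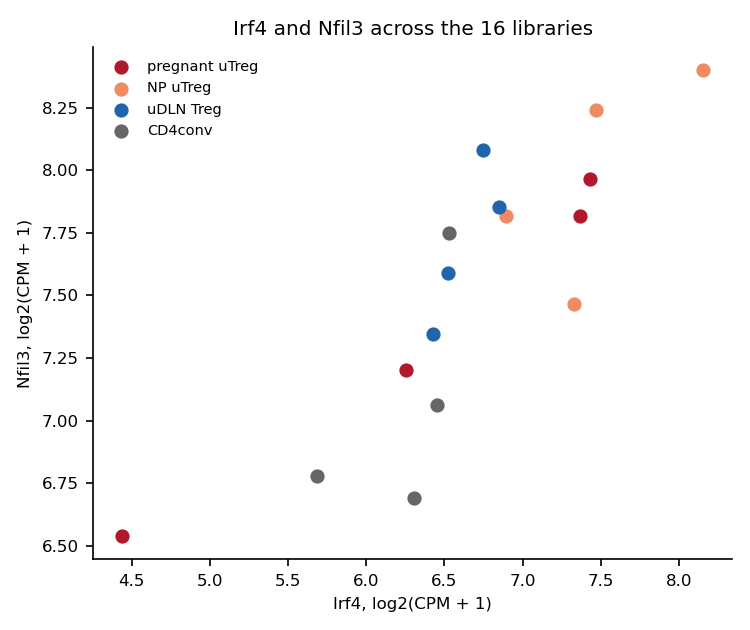
Nfil3 against Irf4, both as log2(CPM + 1), with 1 point per library coloured by group. The points run from pregnant uTreg 4 at the lower left to NP uTreg 1 at the upper right, with r = 0.84 over all libraries and 0.81 after removal of group means.

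Maf encodes a bZIP factor that drives IL-10 in T cells. Maf (ENSMUSG00000055435, chr8:115682942-115707794, minus strand) had 165.1, 172.2, 103.8 and 157.0 CPM in pregnant uTreg, 187.9, 111.0, 90.8 and 119.8 CPM in NP uTreg, 89.9, 61.9, 68.1 and 52.3 CPM in uDLN Treg, and 85.7, 110.1, 40.9 and 69.6 CPM in CD4conv. All 8 uterine Treg libraries were above all 4 uDLN Treg libraries, the lowest of them, NP uTreg 3, by a narrow margin. Against CD4conv, 1 pregnant uTreg library and 1 NP uTreg library were below CD4conv 2. Among genes above background Maf rose in pregnant uTreg against uDLN Treg by 1.51 ± 0.36 on the log2 scale (adjusted p = 0.0323, edgeR) and against CD4conv by 1.28 ± 0.36 (adjusted p = 0.0332). The median level of Maf over background was 12.7 in pregnant uTreg and 9.83 in NP uTreg, against 4.17 in uDLN Treg and 6.46 in CD4conv. Its level in uterine Treg thus helped Maf to pass the background filter, so these calls are a description. The comparison with CD4conv lies within batch 1 and crosses pregnancy, and that with uDLN Treg crosses both the batches and pregnancy. For NP uTreg against uDLN Treg, within batch 2, the log2 fold change was 1.06 ± 0.36 with an adjusted p of 0.223. The call against uDLN Treg was kept in 2 of 8 fits without a single library, those without pregnant uTreg 1 or 3, with adjusted p of 0.0172 to 0.116. The call against CD4conv was kept in 3 of 8, and lost without pregnant uTreg 2 or 4 or CD4conv 1, 3 or 5 (adjusted p 0.0139 to 0.0973). Both were lost without the 5 libraries over 30% background, which include pregnant uTreg 2 and 4, and also when the fit held only the groups compared. Macrophages also express Maf, and the sum of 9 macrophage markers was 61.1 to 329.5 CPM in pregnant uTreg and 169.8 to 1036 CPM in NP uTreg, against 30.8 to 88.5 CPM in uDLN Treg, a difference whose part in the result was not tested. The antisense gene Gm15655 overlaps 440 exonic bases of Maf, and reads of the pair cannot be told apart in unstranded libraries. Exons of Bhlhe40 (118 bases), Ahr (127) and Bcl6 (21) also overlap genes on the opposite strand.

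Id2 and Id3 encode the inhibitors of E proteins, and Treg need both for their upkeep in tissues. Id2 (ENSMUSG00000020644, chr12:25093799-25097140, minus strand) had 236.8, 147.9, 144.8 and 45.9 CPM in pregnant uTreg, 145.8, 164.6, 148.1 and 99.97 CPM in NP uTreg, 117.2, 145.3, 108.2 and 164.3 CPM in uDLN Treg, and 374.2, 434.2, 393.4 and 378.9 CPM in CD4conv. The CD4conv libraries lay within 1.16-fold of each other and the lowest of them was above the highest Treg library. Among genes above background Id2 was lower than in CD4conv, with a log2 fold change of -1.36 ± 0.26 in pregnant uTreg (adjusted p = 0.00256, edgeR) and of -1.41 ± 0.26 in NP uTreg (adjusted p = 0.00211). These 2 calls were kept in 8 of 8 fits without a single library, with adjusted p of at most 0.0123 in pregnant uTreg and 0.00956 in NP uTreg, and without the 5 libraries over 30% background. Over all genes the log2 fold changes were -1.76 ± 0.61 in NP uTreg and -1.54 ± 0.60 in pregnant uTreg, with adjusted p of 0.431 and 0.736 (edgeR). The 3 Treg groups did not separate, with 143.9 ± 78.0 CPM in pregnant uTreg, 139.6 ± 27.7 CPM in NP uTreg and 133.8 ± 25.8 CPM in uDLN Treg.

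Id2 is also high in NK cells and in dendritic cells other than the plasmacytoid kind, and markers of both moved with the same contrast. The 6 NK cell markers (Ncr1, Klrb1c, Tyrobp, Klrd1, Eomes, Klra8) summed to 7.72 to 40.0 CPM in pregnant uTreg, 8.85 to 28.2 CPM in NP uTreg and 12.7 to 27.4 CPM in uDLN Treg, against 323.4 to 1376 CPM in CD4conv. The 9 plasmacytoid dendritic cell markers summed to 105.8 to 226.4 CPM in pregnant uTreg, 31.2 to 272.2 CPM in NP uTreg and 79.7 to 125.1 CPM in uDLN Treg, against 1879 to 4543 CPM in CD4conv, and Cox6a2 among them was at 0 in all 4 NP uTreg libraries. The 8 markers of dendritic cells and MHC class II summed to 131.7 to 217.1 CPM in pregnant uTreg, 83.4 to 370.2 CPM in NP uTreg and 102.9 to 147.1 CPM in uDLN Treg, against 1822 to 15180 CPM in CD4conv. The 9 macrophage markers summed to 61.1 to 329.5 CPM in pregnant uTreg, 169.8 to 1036 CPM in NP uTreg and 30.8 to 88.5 CPM in uDLN Treg, against 149.5 to 9955 CPM in CD4conv. Of these lists, edgeR called lower over all genes in NP uTreg 2 of 5 tested NK cell markers, 8 of 9 plasmacytoid, 5 of 8 dendritic cell and 2 of 9 macrophage markers, and in pregnant uTreg 2, 8, 4 and 3 of the same lists. Of all genes, 0.518% were called in NP uTreg and 0.432% in pregnant uTreg against CD4conv. Among the CD4conv libraries these sums varied 4.25-fold (NK cell), 2.42-fold (plasmacytoid), 8.33-fold (dendritic cell) and 66.6-fold (macrophage), and Id2 1.16-fold. Several of these cell types can carry Id2, so no conclusion on its source is drawn from these spreads. The 2 CD8 T cell markers summed to 14.6 to 28.6 CPM in pregnant uTreg, 6.02 to 26.7 CPM in NP uTreg and 21.5 to 38.6 CPM in uDLN Treg, against 139.2 to 350.0 CPM in CD4conv. The 4 plasma cell markers summed to 97.4 to 214.8 CPM in pregnant uTreg, 107.6 to 322.9 CPM in NP uTreg and 175.0 to 364.8 CPM in uDLN Treg, against 424.5 to 1260.0 CPM in CD4conv. Over all genes edgeR called Cd8b1 and Mzb1 lower in both uterine Treg groups, and Cd8a in NP uTreg. The T cell identity list of 10 genes includes Foxp3, Il2ra and Ikzf2 of Treg. It summed to 1693 to 5715 CPM in pregnant uTreg and 2157 to 6061 CPM in NP uTreg. In uDLN Treg it was 3584 to 5234 CPM, and in CD4conv 1430 to 3200 CPM. Above background, Cd3e, Foxp3, Il2ra and Ikzf2 were called higher in NP uTreg against CD4conv (4 of 10, against 6.09% of genes). In pregnant uTreg all but Cd3e were (3 of 10, against 8.38%). Foxp3 was the gate of the sort, so its call was set in advance, and Il2ra and Ikzf2 are also genes of Treg. Of the rest of the list only Cd3e was called, and only in NP uTreg. Markers of the NK, CD8 T, plasmacytoid, dendritic, macrophage and plasma cell lists moved with the comparisons with CD4conv. In these comparisons 0 genes of the B cell, mast cell and ILC2, stroma, epithelium and endothelium lists were called (edgeR, all genes). NP uTreg 5 held 1058 CPM of the stroma and 394.5 CPM of the epithelium markers. The part of the markers and of the T cell genes in the results for Id2, Irf4, Nfil3 and Maf was not tested. The gene whose level was most like that of Id2 over the 16 libraries was Unc93b1 (r = 0.94), which encodes a chaperone of endosomal Toll-like receptors.

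**Figure D5:**
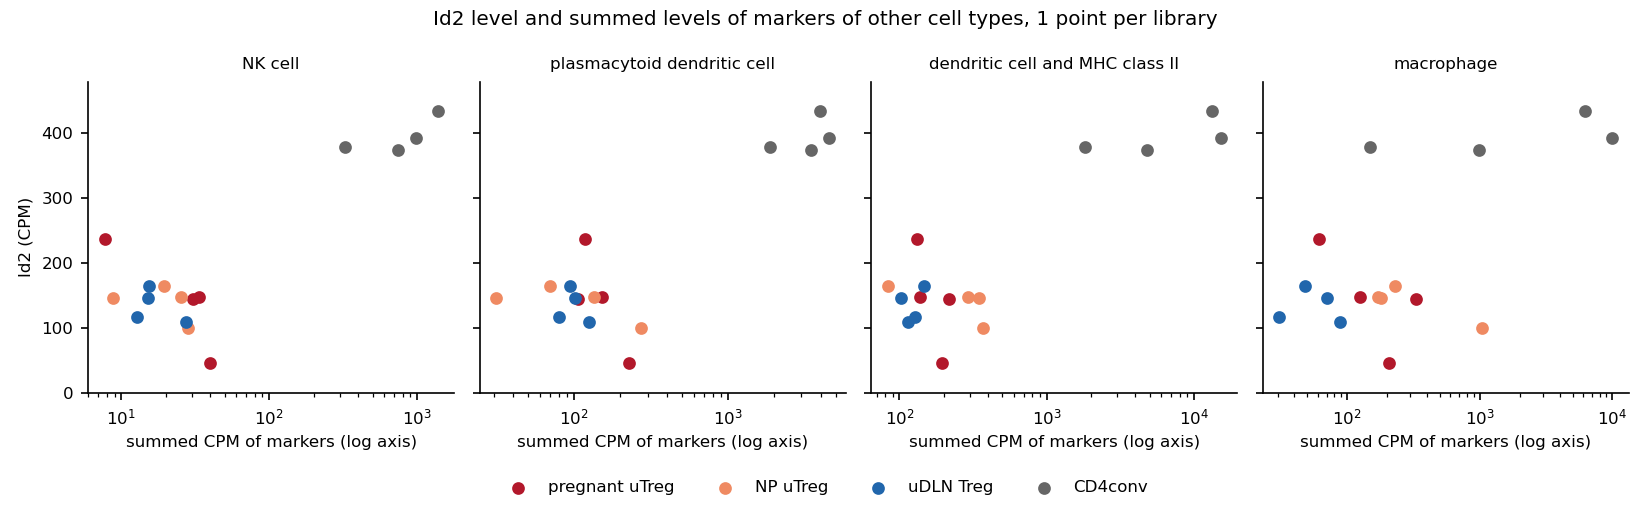
Id2 in CPM (y axis) against the summed CPM of markers of 4 other cell types (x axis, log scale), 1 point per library coloured by group. In CD4conv, Id2 lies between 374.2 and 434.2 CPM, and the macrophage sum runs from 149.5 to 9955 CPM. The source of Id2 in these libraries was not tested.

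Id3 (ENSMUSG00000007872, chr4:136143497-136145755, plus strand) had its highest mean in uDLN Treg and its lowest in CD4conv. It had 42.1, 25.3, 65.6 and 0 CPM in pregnant uTreg, 33.6, 50.2, 17.0 and 54.4 CPM in NP uTreg, 94.8, 71.5, 52.9 and 49.8 CPM in uDLN Treg, and 17.3, 11.6, 45.1 and 22.02 CPM in CD4conv. Pregnant uTreg 4 had no count, which allows up to 0.839 CPM, and the uDLN Treg libraries were all above the CD4conv libraries. No difference among the 5 comparisons passed, and the SE was 0.73 to 0.74 on the log2 scale among genes above background. The ratio of Id2 to Id3 per kb was 4.14, 4.30, 1.62 and at least 40.2 (against 3 counts of Id3) in pregnant uTreg, 3.19, 2.41, 6.41 and 1.35 in NP uTreg, 0.908, 1.49, 1.5 and 2.42 in uDLN Treg, and 15.9, 27.4, 6.41 and 12.6 in CD4conv. CD4conv thus leaned to Id2 more than any Treg library did, apart from the bound of pregnant uTreg 4 and a tie between NP uTreg 3 and CD4conv 3. Of the E proteins, the targets of both inhibitors, only Tcf3 and Tcf12 were listed, and neither was called in any comparison. Tcf3 averaged 89.9 ± 31.1 CPM in pregnant uTreg, 83.0 ± 40.05 CPM in NP uTreg, 89.4 ± 27.2 CPM in uDLN Treg and 77.7 ± 31.3 CPM in CD4conv.

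Bhlhe40 encodes a repressor of the bHLH family that T cell activation induces. Bhlhe40 (ENSMUSG00000030103, chr6:108660629-108666925, plus strand) had 1009, 357.1, 612.6 and 243.7 CPM in pregnant uTreg, 767.0, 1617, 920.3 and 666.2 CPM in NP uTreg, 716.4, 1232, 1078 and 1770.0 CPM in uDLN Treg, and 728.7, 862.5, 788.1 and 929.3 CPM in CD4conv. In pregnant uTreg, 3 of 4 libraries were below all libraries of the other groups, and replicate 1 was above all CD4conv libraries and within the ranges of NP uTreg and uDLN Treg. The log2 fold change of pregnant uTreg was -0.96 ± 0.29 against uDLN Treg (adjusted p = 0.0962, edgeR, genes above background) and -0.82 ± 0.29 against NP uTreg (adjusted p = 0.675). DESeq2 called the difference from uDLN Treg among genes above background, and edgeR called it in 1 of 8 fits, that without pregnant uTreg 1. The lowest 2 libraries are those with over 30% background.

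Ahr encodes a receptor for dietary and microbial ligands that acts in Treg of barrier tissues (ENSMUSG00000019256, chr12:35497974-35535038, minus strand). It ranged from 37.6 to 102.2 CPM in pregnant uTreg, from 36.9 to 49.5 CPM in NP uTreg, from 33.5 to 64.7 CPM in uDLN Treg and from 16.5 to 68.8 CPM in CD4conv. The groups overlapped in all comparisons, and 0 passed (edgeR, all genes, lowest unadjusted p = 0.186 for pregnant against NP uTreg). Of its 6 response genes (Cyp1a1, Cyp1b1, Ahrr, Tiparp, Nqo1, Gpr15), 2 were above background. Over all genes 0 of the 6 were called in any comparison (edgeR). Among genes above background 1 of the 2, Gpr15, was called higher in pregnant uTreg against CD4conv, where 8.38% of genes were called. Its level in pregnant uTreg, the highest of the 4 groups, helped Gpr15 to pass that filter on the mean of all libraries, so this call is a description. Gpr15, a homing receptor, had a log2 fold change of 2.87 ± 0.86 in pregnant uTreg against CD4conv (adjusted p = 0.266, edgeR, all genes), with 47.2 ± 30.5 CPM in pregnant uTreg, 13.8 ± 6.95 CPM in NP uTreg, 9.47 ± 2.15 CPM in uDLN Treg and 5.21 ± 6.56 CPM in CD4conv.

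Relatives and partners of the 10 factors were described by a list of 18 genes. Of all genes tested against CD4conv, 0.432% were called in pregnant uTreg and 0.518% in NP uTreg. In the same test 1 of the 18 was called in each comparison with CD4conv and 0 in the others. The gene was Irf8, the relative of Irf4 that directs dendritic cell and macrophage development, at 29.2 ± 9.27 CPM in pregnant uTreg, 20.9 ± 15.3 CPM in NP uTreg and 59.7 ± 10.6 CPM in uDLN Treg, against 1039 ± 340 CPM in CD4conv. Its log2 fold change against CD4conv was -5.31 ± 0.71 in pregnant uTreg and -6.19 ± 0.74 in NP uTreg (adjusted p = 0.000325 and 0.0001, edgeR, all genes). The marker sums of dendritic cells and macrophages given above moved with Irf8, and their part in it was not tested. Junb, the highest of the list and a partner of BATF, was not called in any comparison and averaged 2523 ± 1259 CPM in pregnant uTreg, 3005 ± 1097 CPM in NP uTreg, 3739 ± 584 CPM in uDLN Treg and 2199 ± 332 CPM in CD4conv.

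Products of effector Treg were described by a list of 18 genes, of which 14 were above background. Over all genes 3 of 18 rose against CD4conv in pregnant uTreg and 4 of 18 in NP uTreg, where 0.432% and 0.518% of all genes were called (edgeR). The median log2 fold changes of the list were 1.52 and 1.06, against 0.07 and -0.05 over all genes tested. Among genes above background 12 and 8 of 14 were called higher, where 8.38% and 6.09% of genes were called. That filter takes the mean over all libraries, which a gene high in 1 group can pass, so these counts are a description. Ctla4, the inhibitory receptor, averaged 1456 ± 855.5 CPM in pregnant uTreg, 1400.0 ± 567.9 CPM in NP uTreg, 1275 ± 262.7 CPM in uDLN Treg and 152.1 ± 81.0 CPM in CD4conv. Il10, which Maf and Blimp-1 are known to promote, rose in pregnant uTreg against CD4conv by 2.22 ± 0.55 on the log2 scale (adjusted p = 0.0175, genes above background), with 26.1 ± 8.81 CPM in pregnant uTreg, 17.3 ± 9.65 CPM in NP uTreg, 50.8 ± 8.71 CPM in uDLN Treg and 7.07 ± 3.33 CPM in CD4conv.

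Against uDLN Treg the products split among genes above background, of which 2.35% were called in pregnant uTreg and 1.29% in NP uTreg. In pregnant uTreg, Il1rl1 (the IL-33 receptor, log2 fold change 2.41 ± 0.34), Gzmb (granzyme B, 2.75 ± 0.62) and Icos (a costimulatory receptor, 1.31 ± 0.33) rose and Ccr8 (a chemokine receptor, -2.38 ± 0.41), Tnfrsf9 (4-1BB, -1.01 ± 0.25) and Tnfrsf4 (OX40, -1.57 ± 0.36) fell. In NP uTreg, Ccr8 (-2.03 ± 0.41) and Tnfrsf9 (-1.41 ± 0.25) fell and none of the 14 rose. None of the 18 was called between pregnant and NP uTreg in either test, or against uDLN Treg over all genes.

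Of 10 genes of resting and recirculating T cells, 9 were above background. Foxo1, a factor of the resting state, rose against CD4conv in pregnant uTreg (1.56 ± 0.28) and NP uTreg (1.41 ± 0.28, log2, edgeR, genes above background). Ccr7, which directs cells to lymph nodes, fell against uDLN Treg by 2.11 ± 0.38 in pregnant uTreg and by 1.69 ± 0.37 in NP uTreg. Il7r, the IL-7 receptor chain, rose in pregnant uTreg against uDLN Treg by 1.04 ± 0.27. No other member of this list passed in any comparison, and over all genes 0 of the 10 did. The shares of all genes called in each comparison are those given above.

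By the level over the 16 libraries, the gene above background most like each of the other factors was Kat8 for Irf4 (r = 0.95), Gbp8 for Batf (0.90), Aplp2 for Prdm1 (0.80), Pim3 for Nfil3 (0.88), Birc6 for Maf (0.90), Polb for Bcl6 (0.80), Kcna3 for Ahr (0.93), Rgs14 for Id3 (0.95) and Odc1 for Bhlhe40 (0.95), all as Pearson r of log2(CPM + 1). Each is the highest among the 4732 genes above background, and the correlations share the depth and background of the same libraries.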

How the data were processed

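RNA was measured in 16 libraries, 4 per group. Per the labels' protocols, CD4-enriched cells were sorted, cDNA was made with SMART-Seq v4 and libraries with Nextera XT, in paired reads of 150 bp. Neither kit marks the strand. The submitters' processing notes name GRCm38 as build and, as tools, HISAT2, featureCounts, SAMtools, Trimmomatic and DESeq2, while no versions were given in the labels or files. The authors deposited raw read counts per gene, and the 16 single-library files were identical to the table. Symbols came from GENCODE M21, which named 49326 of 49585 genes.

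The 10 genes, the lists and the tests were chosen with earlier results of these data known. Counts were tested with edgeR 4.0.16 in R 4.3.3 (quasi-likelihood, robust, TMM, filterByExpr, 16 libraries, 12 residual degrees of freedom) and, as an alternative, DESeq2 1.42.0. The SE is the absolute log2 fold change over the square root of F. The script was tested on simulated counts. Replicates are pools of mice, and p-values measure the spread between pools. Floors of 3 counts cover counting error only. The background came from 1429 receptor genes. A gene above background is protein-coding and has a mean share of counts over 5 times the background per exonic base. Replicates varied with a common biological coefficient of 0.812 in the fit of all genes and 0.433 in that of genes above background. Restricting the genes moved their median log2 fold change to 0.048 (from -0.223) for NP uTreg against uDLN Treg and to 0.020 (from -0.292) against CD4conv. For pregnant uTreg it moved to 0.032 (from -0.227) against CD4conv, to 0.051 (from -0.166) against uDLN Treg and to 0.004 (from 0.054) against NP uTreg. DESeq2 size factors moved the median of all genes in NP uTreg against CD4conv to 0.14, from -0.05 with TMM.

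Replicate numbers were taken to pair libraries where each same-numbered pair correlates above 0.1 in its deviations from the group means. Pregnant uTreg and CD4conv met this for their 3 shared numbers (r = 0.110, 0.112 and 0.101), taken from the sample descriptions, and the other comparisons did not. Pregnant uTreg and CD4conv came from different mice, pregnant and non-pregnant, so their shared numbers cannot stand for shared pools. Whether same-numbered libraries of the non-pregnant groups came from the same pools was not tested. Named genes are the 10 factors, members of other lists that were called or were among the 4 highest, Foxp3, and for each factor the gene above background with the highest correlation of levels. Tcf3 and Tcf12 were named for their role after their values were seen. Results were repeated with other scaling, filters, tests, samples and pairing.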

Additional observations from a re-analysis of the deposited data

Results flagged for a closer look

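In groups of 4, a library was singled out where its gap to the nearest other library exceeded Dixon's 95% critical share of the group's range. This was so in 2 of 40 groups of the 10 factors, and chance gives about 1 in 20. Batf in uDLN Treg replicate 1 was 115 CPM, above 78.1, 78.5 and 79.1 CPM in the other uDLN Treg libraries. Bcl6 in NP uTreg replicate 5 was 58.4 CPM, against 0, 1.25 and 4.67 CPM in the other NP uTreg libraries. NP uTreg 5 is among the libraries over 30% background, and its Bcl6 level was 3.09 times the background of that library.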

How the results depend on the processing

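Among genes above background, the Id2 calls in both comparisons with CD4conv held under every alternative run on those genes. Irf4, Nfil3 and Maf each lost a call under at least 1 alternative, as given in the results. Fold changes that changed sign were of differences that had not passed. Bcl6, Prdm1 and Ahr had the lowest mean ratios to background, and Bcl6 was under 2 times its background in 10 of 16 libraries. The cause of the changes below was not tested. With the replicate number as a block, pregnant uTreg against CD4conv had 145 genes called over all genes and 483 among genes above background. Maf (adjusted p = 0.046) and Id2 (0.024, edgeR) were called in the second, and the block changed no call of a factor there. Pregnant uTreg and CD4conv come from different mice, so this block stands for no shared pool. In the other comparisons same-numbered libraries did not meet the rule for pairing. The block ended the calls of Nfil3 in NP uTreg against CD4conv and of Maf in pregnant uTreg against uDLN Treg. In the test restricted to genes above background, the number of genes called was 61 for NP uTreg against uDLN Treg, 288 for NP uTreg against CD4conv, 396 for pregnant uTreg against CD4conv and 111 for pregnant uTreg against uDLN Treg. There, the number of factors called was 3 for NP uTreg against CD4conv, 2 for pregnant uTreg against CD4conv and 1 for pregnant uTreg against uDLN Treg. There, the log2 fold changes that changed sign were 0.23 for Id2 in NP uTreg against uDLN Treg, -0.36 for Id3 in pregnant against NP uTreg, 0.31 for Batf in pregnant uTreg against uDLN Treg. With DESeq2 size factors in edgeR, over all genes, the log2 fold changes that changed sign were 0.08 for Id2 in NP uTreg against uDLN Treg, -0.01 for Bcl6 and -0.07 for Id3 in pregnant against NP uTreg. With the DESeq2 Wald test, over all genes, the number of genes called was 30 for NP uTreg against uDLN Treg, 330 for NP uTreg against CD4conv, 12 for pregnant against NP uTreg, 330 for pregnant uTreg against CD4conv and 45 for pregnant uTreg against uDLN Treg. There, the log2 fold changes that changed sign were 0.08 for Id2 in NP uTreg against uDLN Treg, -0.01 for Bcl6 and -0.08 for Id3 in pregnant against NP uTreg. With the DESeq2 Wald test, among genes above background, the number of genes called was 133 for NP uTreg against uDLN Treg, 438 for NP uTreg against CD4conv, 7 for pregnant against NP uTreg, 618 for pregnant uTreg against CD4conv and 243 for pregnant uTreg against uDLN Treg. There, the number of factors called was 2 for pregnant uTreg against uDLN Treg. Without the libraries over 30% background, over all genes, the number of genes called was 2 for NP uTreg against uDLN Treg, 427 for NP uTreg against CD4conv, 4 for pregnant against NP uTreg, 230 for pregnant uTreg against CD4conv and 11 for pregnant uTreg against uDLN Treg. There, the number of factors called was 1 for NP uTreg against CD4conv. There, the log2 fold changes that changed sign were 0.06 for Batf, 0.02 for Ahr, 0.19 for Id2 and 0.10 for Bhlhe40 in NP uTreg against uDLN Treg, 0.08 for Ahr in NP uTreg against CD4conv, -0.01 for Maf in pregnant against NP uTreg, 0.07 for Bhlhe40 in pregnant uTreg against CD4conv, 0.30 for Batf and 0.20 for Nfil3 in pregnant uTreg against uDLN Treg. Without the libraries over 30% background, among genes above background, the number of genes called was 17 for NP uTreg against uDLN Treg, 1 for pregnant against NP uTreg and 36 for pregnant uTreg against uDLN Treg. There, the number of factors called was 1 for pregnant uTreg against CD4conv and 0 for pregnant uTreg against uDLN Treg. There, the log2 fold changes that changed sign were 0.02 for Batf in NP uTreg against uDLN Treg, -0.17 for Maf and 0.36 for Id3 in pregnant against NP uTreg, 0.02 for Nfil3 in pregnant uTreg against uDLN Treg. With only the libraries of the groups compared, over all genes, the number of genes called was 78 for pregnant uTreg against CD4conv. With only the libraries of the groups compared, among genes above background, the number of genes called was 115 for NP uTreg against uDLN Treg and 164 for pregnant uTreg against CD4conv. There, the number of factors called was 1 for NP uTreg against uDLN Treg, 1 for pregnant uTreg against CD4conv and 0 for pregnant uTreg against uDLN Treg. With the replicate number as a block, over all genes, the number of genes called was 1 for pregnant against NP uTreg and 20 for pregnant uTreg against uDLN Treg. There, the log2 fold changes that changed sign were -0.19 for Batf and -0.10 for Bhlhe40 in NP uTreg against CD4conv, 0.19 for Batf and 0.18 for Nfil3 in pregnant uTreg against uDLN Treg. With the replicate number as a block, among genes above background, the number of genes called was 122 for NP uTreg against CD4conv and 187 for pregnant uTreg against uDLN Treg. There, the number of factors called was 0 for pregnant uTreg against uDLN Treg. There, the log2 fold changes that changed sign were 0.40 for Id3 in pregnant against NP uTreg, 0.10 for Nfil3 in pregnant uTreg against uDLN Treg. With no filter on low counts, over all genes, the log2 fold changes that changed sign were 0.01 for Batf in pregnant uTreg against uDLN Treg. With 1 replicate left out in turn, the number of genes called over all genes ranged over 72 to 170 for NP uTreg against CD4conv, 72 to 162 for pregnant uTreg against CD4conv and 0 to 1 for pregnant uTreg against uDLN Treg. In NP uTreg against uDLN Treg, over all genes, log2 fold changes then spanned -1.18 to 0.06 (Batf), -0.92 to 0.05 (Bhlhe40), -0.36 to 0.19 (Id2) and -0.11 to 0.40 (Nfil3). In NP uTreg against CD4conv, over all genes, log2 fold changes then spanned -0.48 to 0.62 (Batf) and -0.59 to 0.33 (Bhlhe40). In pregnant against NP uTreg, over all genes, log2 fold changes then spanned -1.03 to 2.87 (Bcl6), -1.29 to 0.01 (Bhlhe40), -0.31 to 0.58 (Id2), -0.64 to 0.58 (Id3), -0.01 to 0.56 (Maf) and -0.30 to 0.88 (Prdm1). In pregnant uTreg against CD4conv, over all genes, log2 fold changes then spanned -0.18 to 0.70 (Ahr), -0.14 to 1.13 (Id3) and -0.03 to 0.61 (Nfil3). In pregnant uTreg against uDLN Treg, over all genes, log2 fold changes then spanned -0.12 to 0.76 (Ahr), -0.32 to 0.47 (Batf), -0.34 to 0.54 (Id2), -0.11 to 0.70 (Irf4) and -0.52 to 0.13 (Nfil3). With 1 replicate left out in turn, the number of genes called among genes above background ranged over 184 to 329 for NP uTreg against CD4conv, 244 to 471 for pregnant uTreg against CD4conv, 41 to 118 for pregnant uTreg against uDLN Treg and 19 to 62 for NP uTreg against uDLN Treg. With 1 replicate left out in turn, the number of factors called among genes above background ranged over 1 to 3 for NP uTreg against CD4conv, 1 to 2 for pregnant uTreg against CD4conv and 0 to 2 for pregnant uTreg against uDLN Treg. In NP uTreg against uDLN Treg, among genes above background, log2 fold changes then spanned -0.37 to 0.05 (Bhlhe40). In pregnant against NP uTreg, among genes above background, log2 fold changes then spanned -0.15 to 0.24 (Id2) and -0.82 to 0.04 (Id3). In pregnant uTreg against CD4conv, among genes above background, log2 fold changes then spanned -0.02 to 0.97 (Id3). In pregnant uTreg against uDLN Treg, among genes above background, log2 fold changes then spanned -0.01 to 0.48 (Irf4) and -0.13 to 0.03 (Nfil3). Counts moved by over 1.5 times without NP uTreg 1, 2 or 3 or CD4conv 2 or 3 (NP uTreg against CD4conv, all genes), pregnant uTreg 1 or 2 or CD4conv 3 (pregnant uTreg against CD4conv, all genes), and, among genes above background, CD4conv 3 (NP uTreg against CD4conv), CD4conv 1, 2 or 3 (pregnant uTreg against CD4conv), NP uTreg 1, 2 or 3 or any uDLN Treg library (NP uTreg against uDLN Treg) and pregnant uTreg 1, 2 or 3 or any uDLN Treg library (pregnant uTreg against uDLN Treg). The lowest counts of genes without 1 replicate were those without CD4conv 3 in both comparisons with CD4conv in both tests, and without uDLN Treg 2 in both comparisons with uDLN Treg among genes above background.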
